A study of Mus musculus with 16 samples.

Results

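The genes described here encode the subunits of the constitutive proteasome, the protease complex that degrades proteins marked with ubiquitin in every cell. They were taken as all genes of the deposited table whose symbol begins with Psma, Psmb, Psmc, Psmd, Psme or Psmf followed by a number. Pseudogenes and the immunoproteasome genes Psmb8, Psmb9 and Psmb10 were left out. The rule used no measured value and found 44 of 35415 genes: 16 of the core particle (Psma and Psmb), 20 of the regulatory particle (Psmc and Psmd), 5 of the activators (Psme), the inhibitor Psmf1, and 2 genes that match by name alone. These last 2 are Psmc3ip and Psme3ip1, which encode proteins named for an interaction with a subunit and are no subunits themselves. The 20 Psmc and Psmd genes include the assembly chaperones Psmd5, Psmd9 and Psmd10, which are counted here with the subunit genes by name.

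RNA of the gastrocnemius, a calf muscle, was sequenced from 16 wild type male BALB/c mice that entered the study at 8 weeks of age. The tumor-free C and E mice received saline, and the T and TE mice received CT26, a line of colon carcinoma cells derived from the BALB/c strain. Cells or saline were placed under the skin of the left hind limb. The E and TE mice ran on a treadmill, whereas the C and T mice stayed untrained. Training ran for 4 weeks at 14 m/min, 60 min a day on 6 days a week, and the untrained mice were placed on a treadmill that did not move. Each group held 4 sequenced mice, chosen from 12 per group in the study. Not every mouse of the TE group formed a tumor in the study, and the labels do not say whether the sequenced mice did. They also do not say which leg was sampled, and all libraries carry the same batch label.

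The proteasome is a barrel with caps. The barrel, or core particle, is built from rings of Psma proteins, which form the gate, and rings of Psmb proteins, of which Psmb5, Psmb6 and Psmb7 carry the sites that cut proteins. The regulatory particle holds a ring of Psmc ATPases that unfold the substrate and a set of Psmd proteins that bind ubiquitin, remove it and hold the cap together, while the Psme activators open the barrel without ubiquitin or ATP. In wasting muscle, the proteasome works downstream of ubiquitin ligases such as Fbxo32 and Trim63, and Nfe2l1 is known as a transcription factor that raises many subunit genes together.

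The smallest library held 35628211 counts and the largest 37635741. The limit that a count of 0 allows, 3 counts, is therefore at most 0.0842 CPM, which are counts scaled to a fixed library size. Of all genes, 14749 passed the filter on low counts and were tested. FPKM are such values divided also by gene length, and were used wherever genes are compared. Summed FPKM of 15 muscle markers lay between 96000 and 111000 in every group, with none of them at 0. In average-linkage clustering, the library of mouse 4 of the TE group (TE4) stood apart from the other 15 when 2 clusters were formed, and T3, T4 and TE4 lay outside the largest of 3 clusters, so the fold changes of single genes that T3 or TE4 moved by over 1.5 times are also given without that mouse. In T compared with C, 5 of 10 tested neutrophil markers and 4 of 6 tested erythroid markers rose by edgeR's adjusted p. The summed FPKM of 15 neutrophil markers, of which Elane was at 0 in all mice, was 2.02 to 18.4 in C, 2.24 to 9.56 in E, 16.4 to 89.9 in T and 21.8 to 41.8 in TE. That of 8 erythroid markers was 361 to 527 in C, 391 to 581 in E, 733 to 821 in T and 863 to 1270.0 in TE. The sum of 11 macrophage markers was 158, 171 and 152 in T3, T4 and TE4, the libraries that stood apart, and at most 119 in any other mouse. Of these 11, 0 were called in T compared with C, where 11 of 11 fold changes were above 0 with a median of 0.61 on the log2 scale. The sum of 8 adipocyte markers ran from 973 in TE4 to 1910.0 in T4, with 0 called. The part of these cells in the subunit values was not tested. The sum of 17 lymphoid markers was 150.0 in TE4 and at most 53.1 in any other mouse. In muscle sampled as a whole, fewer cells of a type and less RNA per cell cannot be told apart.

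The subunit genes were abundant. Of the 42 subunit genes, 40 passed the filter on low counts, and 40 of these 40 had a mean FPKM above 2.85, the median of all tested genes. The median over genes was 82.4 FPKM for the 14 tested core genes, 64.4 for the 20 regulatory genes and 19.3 for the 5 activator genes. The highest level was that of Psmb7, with a mean of 207 FPKM over the 16 mice, followed by Psmb3, a structural ring subunit, with 130.3 FPKM. The lowest was that of the inhibitor Psmf1, with 5.52 FPKM, followed by Psmd10, an assembly chaperone of the regulatory base, with 6.28 FPKM, so that the highest mean was 37.4 times the lowest. Within the core the genes ran from Psma3 with 29.4 FPKM to Psmb7, a 7.03-fold range, although the ring places of these subunits are filled in equal number. This range depends on the length assigned to each gene, which was 3325 bases for Psma3 and 731 for Psmb3. The counts of Psma3 and Psmb3 were alike, 3214 to 3978 and 3242 to 3790 per mouse. Within the regulatory particle the genes ran from Psmd10 to the ATPase Psmc3 with 115 FPKM, and the 3 base chaperones Psmd5, Psmd9 and Psmd10, with 10.98, 6.65 and 6.28 FPKM, were its lowest genes. The plot of levels by group shows that the 4 groups lay close together for each gene.

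**Figure D1:**
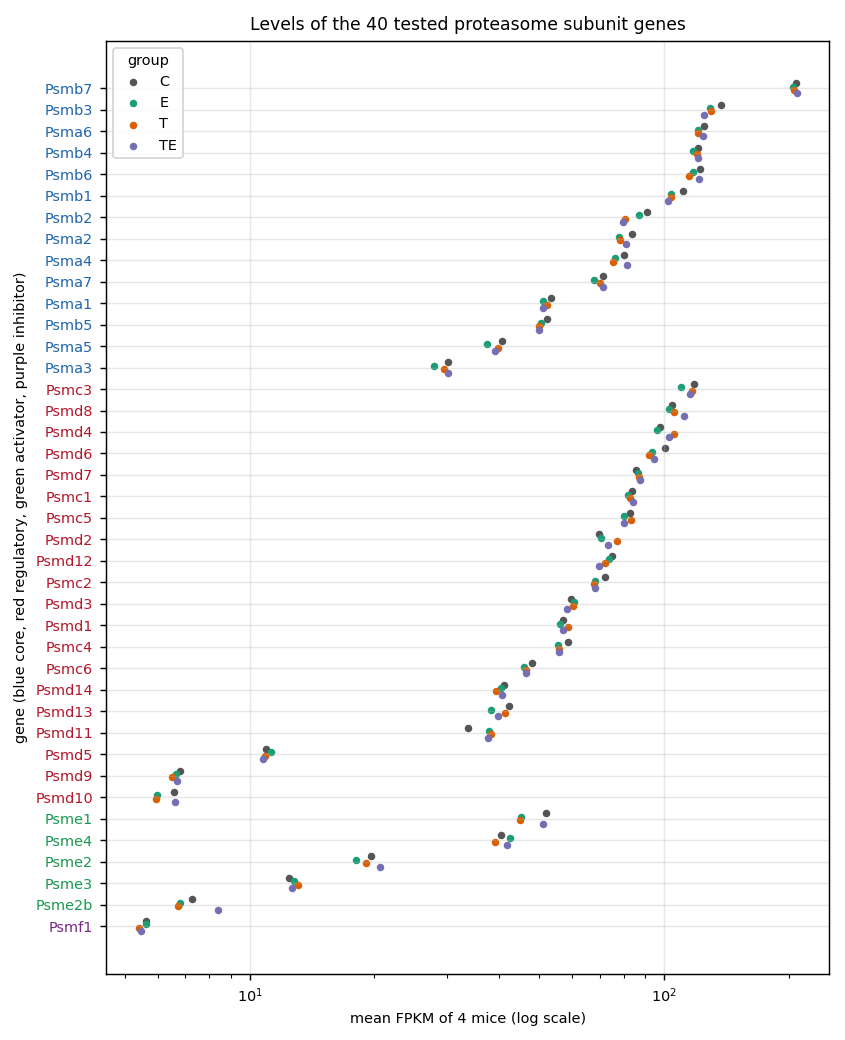
Mean FPKM of 4 mice (horizontal, log scale) for each of the 40 tested subunit genes (vertical), with 1 point per group. Core genes such as Psmb7 (207 FPKM over all mice) lie at the right and Psmf1 (5.52 FPKM) at the left, and the points of the 4 groups nearly coincide for most genes.

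The spread between mice of a group was small. The median over genes of the SD within groups was 0.094 on the log2 scale for the 40 subunit genes, 0.193 for all tested genes and 0.116 for the 5292 tested genes whose mean FPKM was at or above that of Psmf1. The SD of each of the 40 was under the median of all tested genes. Psmb4, a ring subunit, had the lowest SD at 0.051, and Psmd10 the highest at 0.182. The activators as a class varied more, with a median SD of 0.133, than the core with 0.09 and the regulatory particle with 0.092.

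The catalytic subunits show how close the groups were. Psmb5, whose product cuts after hydrophobic residues, had 59.4, 51.9, 49.3 and 47.8 FPKM in the 4 C mice, 49.8, 50.05, 50.7 and 51.6 in the E mice, 51.02, 50.4, 50.8 and 46.96 in the T mice and 53.5, 48.4, 48.7 and 49.3 in the TE mice. The groups overlapped, with means of 52.1 ± 5.15, 50.6 ± 0.802, 49.8 ± 1.91 and 49.9 ± 2.37 FPKM (SD, n = 4). Psmb6, whose product cuts after acidic residues, had 122 ± 8.35, 117.5 ± 4.25, 115 ± 4.41 and 122 ± 3.5 FPKM in C, E, T and TE (SD, n = 4). Psmb7, whose product cuts after basic residues, had 209 ± 13.3, 204 ± 9.45, 206 ± 8.82 and 209 ± 10.5 FPKM (SD, n = 4). In every comparison each of the 3 genes missed the threshold, and for Psmb7 in T compared with C the 95% interval of the fold change was 0.914 to 1.1. The genes lie apart in the genome, Psmb5 at chr14:54850776-54855481 on the minus strand, Psmb6 at chr11:70416183-70418684 on the plus strand and Psmb7 at chr2:38478044-38534099 on the minus strand of GRCm39, and part of the Psmb7 exons is shared with Nek6 on the other strand.

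The first comparison asked whether CT26 tumors were accompanied by another level of proteasome transcripts in untrained muscle. No subunit gene passed an adjusted p of 0.05 when T was compared with C: edgeR, with quasi-likelihood tests adjusted by the Benjamini-Hochberg method, called 0 of 40, beside 0.678% of all tested genes, and 3 of 40 had an unadjusted p under 0.05, beside 14.2% of all tested genes. Of all genes, 100 were called, or 16 without C4 to 255 without T2, so the data held calls for other genes. The 95% interval of every one of the 40 fold changes lay between 0.5 and 2, and 33 lay between 0.833 and 1.2. The intervals reached from 0.765 (Psmd10) to 1.32 (Psmd11) in fold. The median log2 fold change was -0.032 for the core (4 of 14 genes above 0), 0.0098 for the regulatory particle (11 of 20) and -0.026 for the activators (1 of 5), beside -0.0012 for all tested genes. Single mice turned these counts: 14 of 14 core and 13 of 20 regulatory genes were below 0 without C3, 7 of 14 and 7 of 20 without T4, and 5 of 14 and 2 of 20 without T3, T4 and TE4. The regulatory median ran from -0.039 without C3 to 0.058 without T3, T4 and TE4.

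**Figure D2:**
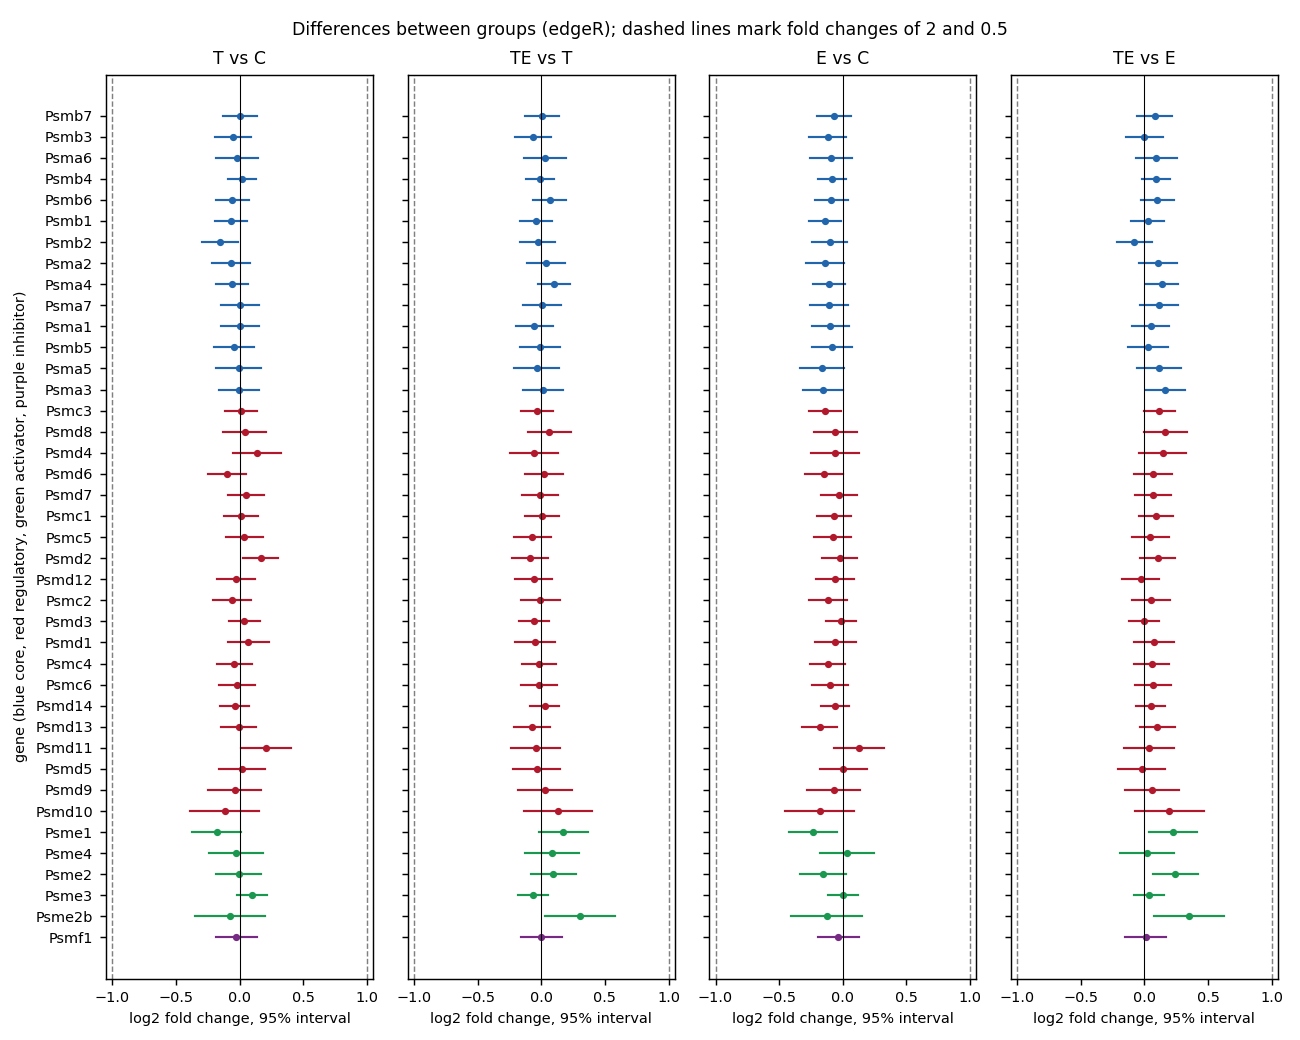
Log2 fold change from edgeR (horizontal, with 95% interval) of each of the 40 tested subunit genes (vertical) in T vs C, TE vs E, E vs C and TE vs T; colors mark the classes and dashed lines fold changes of 2 and 0.5. No interval reaches a dashed line, the widest upper bound being that of Psme2b in TE vs E at 1.55-fold.

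The smallest p values in that comparison belonged to Psmd2, Psmb2 and Psmd11. Psmd2, a large scaffold protein of the regulatory base (chr16:20470346-20485708, plus strand), had 72.3, 72.8, 66.9 and 67.4 FPKM in C and 73.3, 75.9, 88.7 and 70.3 FPKM in T. The groups overlapped in part, and mouse T3 had the highest value of all 16 mice. The difference was a log2 fold change 0.17 (SE 0.0657, adjusted p = 0.256 by edgeR with Benjamini-Hochberg adjustment), and 0.10 on the log2 scale without T3. Psmd4, a ubiquitin receptor of the base (chr3:94937765-94949925, minus strand), had 105, 101, 88.5 and 97.2 FPKM in C and 106, 101, 124.5 and 92.4 FPKM in T, again with T3 highest of all mice and with overlapping groups. It had a log2 fold change 0.14 (SE 0.0885, adjusted p = 0.517 by edgeR with Benjamini-Hochberg adjustment), which was 0.064 without T3 and 0.081 without C3. With Psmd1, the other scaffold, these are the Psmd genes listed here as the non-ATPase part of the base. Their fold changes were above 0 for 3 of 3, with a median of 0.14, or 0.064 without T3.

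Psmd11, a structural subunit of the lid (chr11:80319400-80364074, plus strand), had 34.4, 33.7, 34.7 and 32.1 FPKM in C and 41.1, 35.8, 43.9 and 32.4 FPKM in T. The C values had an SD of 1.13 FPKM, and T1, T2 and T3 lay above every C mouse, with T4 within the C range. The log2 fold change 0.21 (SE 0.0929, adjusted p = 0.316 by edgeR with Benjamini-Hochberg adjustment) was 0.15 without T3 and 0.28 without T4. Psmb2, a ring subunit without a cutting site (chr4:126571423-126606667, plus strand), had 93.1, 95.9, 80.1 and 95.05 FPKM in C and 80.1, 82.6, 80.5 and 78.4 FPKM in T. Mouse C3 lay within the range of the T mice and the other C mice lay above it, with a log2 fold change -0.15 (SE 0.0661, adjusted p = 0.295 by edgeR with Benjamini-Hochberg adjustment).

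The same tumor contrast in trained mice, TE compared with E, also called 0 of 40 subunit genes, beside 0.231% of all tested genes, while 5 of 40 had an unadjusted p under 0.05, beside 9.23%. The 5 were Psme1, Psme2, Psme2b, Psma3 and Psma4, all with higher values in TE, where 3.7% of all tested genes had such a p and were higher. The median log2 fold change was 0.094 for the core (13 of 14 genes above 0), 0.066 for the regulatory particle (17 of 20) and 0.23 for the activators (5 of 5), beside 0.0029 for all tested genes. With library totals in place of TMM factors the core median was 0.045 and the regulatory median 0.016, with 4 of 14 and 6 of 20 genes below 0 and the median of all tested genes at -0.046. Of the activators, 2 of 5 were then below 0. Without TE4 the regulatory median was 0.11, with 0 of 20 genes below 0. On TMM-scaled CPM, 7 of 40 genes (Psma3, Psma4, Psma7, Psmb6, Psmc3, Psmd6 and Psme2) had groups that did not overlap, TE being higher, beside 2.68% of all tested genes, and in T compared with C 0 of 40 did so in either direction, beside 6.86%. Muscle markers were above 0 for 12 of 15 in TE compared with E, with a median log2 fold change of 0.083 and none called. In the same comparison 5 of 6 tested erythroid markers rose by edgeR, with a list median of 1.19 on the log2 scale. Neutrophil markers were above 0 for 10 of 10 with a median of 1.99, and lymphoid markers for 16 of 17 with a median of 1.34, with 0 called in either list. The lymphoid values turned on TE4: its sum was 150.0 FPKM, whereas TE1, TE2 and TE3 had 9.66, 8.76 and 6.08, below every E mouse (15.6 to 47.4). The part of these markers in the subunit values was not tested.

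Averaged over trained and untrained mice, tumor-bearing against tumor-free muscle called 0 of 40 subunit genes, beside 1.36% of all tested genes, with 3 of 40 at an unadjusted p under 0.05, beside 14.2%. The smallest adjusted p was that of Psmd2, with a log2 fold change 0.13 (SE 0.0464, adjusted p = 0.185 by edgeR with Benjamini-Hochberg adjustment), followed by Psmb2 with a log2 fold change -0.12 (SE 0.0467, adjusted p = 0.263 by edgeR with Benjamini-Hochberg adjustment). For this average, which rests on 8 mice against 8, the intervals were narrower: 38 of 40 lay between 0.833 and 1.2 in fold. The class medians were 0.031 for the core, 0.041 for the regulatory particle and 0.067 for the activators. Without C3 the core and regulatory medians were 0.011 and 0.015, and without C1 the core median was 0.049. With library totals in place of TMM factors, an alternative added after the data were seen, the core median was -0.0064 and 8 of 14 core genes were below 0, so the direction of the core median depended on the scaling, while the regulatory and activator medians were 0.0026 and 0.030.

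The next comparison asked what training did in tumor-free muscle. Psmd13, a lid subunit, Psme1, an activator subunit, Psmc3, an ATPase, and Psmb1, a ring subunit, had an unadjusted p under 0.05 and lower values in E than in C, and 0 of 40 genes were called after adjustment, beside 0.0881% of all tested genes; 4 of 40 at the unadjusted threshold stand beside 14.2% of all genes in either direction and 5.67% with lower values in E. Fold changes were below 0 for 14 of 14 core genes, 18 of 20 regulatory genes and 3 of 5 activators, whereas 50.6% of all tested genes were above 0. The medians were -0.10, -0.067 and -0.13, beside 0.0033 for all tested genes. Muscle markers had a median of -0.11, with 3 of 15 above 0 and none called. Adipocyte markers were above 0 for 7 of 8 with a median of 1.39, and macrophage markers for 9 of 11 with a median of 0.22, with none called by edgeR. The part of these markers in the lower subunit values was not tested.

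By mouse, the core values of the C group spread more widely than those of the E group. As the median over core genes of the deviation from the mean of 16 mice (log2 CPM), mice C1, C2, C3 and C4 had 0.14, 0.12, -0.10 and 0.0026, and the E mice had -0.034, -0.078, -0.095 and -0.036. Mouse C3 lay below every E mouse, whereas C1, C2 and C4 lay above them. The SD within groups of this class median was 0.070, beside a core median of -0.10 for E compared with C. Without any 1 of the C mice, 13 or 14 of 14 core genes and 17 to 19 of 20 regulatory genes were below 0. The core median was then -0.17 without C3 and -0.075 without C1, and the regulatory median -0.11 and -0.048. With library totals in place of TMM factors the core median was -0.067 and the regulatory median -0.028, with 14 of 14 core and 15 of 20 regulatory genes below 0 while the median of all tested genes was at 0.041.

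**Figure D3:**
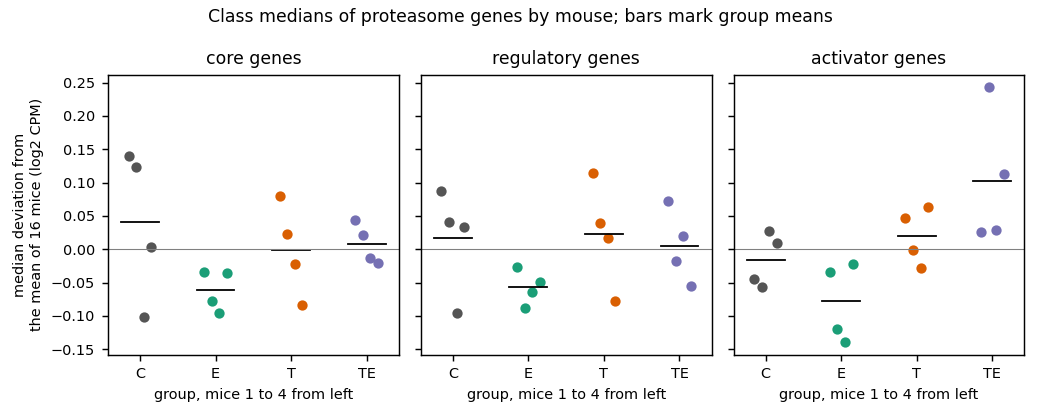
Median deviation from the mean of 16 mice (vertical, log2 CPM) over the genes of the core, regulatory and activator classes, with 1 point per mouse, mice 1 to 4 from left in each group, and a bar for the group mean. The E mice lie below 0 in all 3 panels, and the C mice reach from -0.10 to 0.14 in the core panel.

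Single genes showed the same overlap. Psmd13 had 41.6, 44.9, 39.7 and 42.8 FPKM in C and 39.8, 41.8, 35.5 and 35.9 FPKM in E. Mice E3 and E4 lay below all C mice and the other E mice among them, with a log2 fold change -0.18 (SE 0.0662, adjusted p = 0.239 by edgeR with Benjamini-Hochberg adjustment). Psmc3, the most abundant regulatory transcript, had 122, 123.5, 109 and 118 FPKM in C and 114.5, 109, 106 and 110.5 in E, with a log2 fold change -0.14 (SE 0.0586, adjusted p = 0.3 by edgeR with Benjamini-Hochberg adjustment). On TMM-scaled CPM, 3 of 40 genes (Psma1, Psmb1 and Psmc6) were lower in every E mouse than in any C mouse, beside 4.02% of all tested genes. Psmd11 went the other way, with 36.7, 38.7, 38.8 and 37.4 FPKM in E, above each of the C values on the FPKM scale though not on TMM-scaled CPM, and a log2 fold change 0.13 (SE 0.0929, adjusted p = 0.548 by edgeR with Benjamini-Hochberg adjustment). The average over tumor-bearing and tumor-free mice, trained against untrained, called 0 of 40, beside 0.00678% of all tested genes, with 2 of 40 at an unadjusted p under 0.05 beside 10.8%, and 39 of the 40 intervals lay between 0.833 and 1.2 in fold. Its leading genes were Psmd13, with a log2 fold change -0.13 (SE 0.0468, adjusted p = 0.362 by edgeR with Benjamini-Hochberg adjustment), and Psmb1, with a log2 fold change -0.091 (SE 0.0425, adjusted p = 0.46 by edgeR with Benjamini-Hochberg adjustment).

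In tumor-bearing mice, training was tested as TE compared with T. No gene of the whole table was called, 0% of all tested genes, and 0 of 40 subunit genes. At an unadjusted p under 0.05 there was 1 of 40, Psme2b, beside 5.88% of all tested genes. The medians were -0.0012 for the core, -0.026 for the regulatory particle and 0.094 for the activators. Without T1 the core and regulatory medians were 0.022 and 0.014, and the activator median was 0.050 without TE2 and 0.16 without T4. Lymphoid markers were above 0 for 17 of 17 in TE compared with T, with a list median of 3.73 on the log2 scale, and for 0 of 17 in T compared with C, with a median of -2.74. The higher values in TE belonged to TE4, since the lymphoid sums of TE1, TE2 and TE3 lay within the T range of 5.57 to 11.9 FPKM. None of the markers was called in either comparison by edgeR, and their part in the activator values was not tested. Psma4, a gate-ring subunit, was the single gene of 40 whose groups did not overlap on TMM-scaled CPM, TE being higher, beside 1.24% of all tested genes: it had 74.6, 76.6, 75.3 and 74.3 FPKM in T and 80.99, 81.8, 79.6 and 83.01 FPKM in TE, a log2 fold change 0.097 (SE 0.0599, adjusted p = 0.888 by edgeR with Benjamini-Hochberg adjustment). T compared with C, E compared with C, TE compared with T and TE compared with E each share a group with another of these comparisons, so their values are not independent of each other.

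The activators form different caps and are described one by one. Psme1 and Psme2 lie next to each other on chromosome 14, at chr14:55815190-55822034 on the plus strand and chr14:55824895-55829173 on the minus strand, and their products form 1 ring together that interferon gamma is known to induce along with the immunoproteasome. Psme1 had 48.2, 56.1, 49.9 and 53.05 FPKM in C, 52.7, 42.7, 43.8 and 41.9 in E, 43.9, 47.2, 38.7 and 49.4 in T and 50.6, 49.9, 45.9 and 58.4 in TE. TE4 was the highest and T3 the lowest of the 16 mice. The E and T means, 45.2 ± 5 and 44.8 ± 4.64 FPKM, lay below the C and TE means of 51.8 ± 3.52 and 51.2 ± 5.24 FPKM (SD, n = 4), with ranges that overlapped in each comparison. Psme1 had a log2 fold change -0.23 (SE 0.0904, adjusted p = 0.272 by edgeR with Benjamini-Hochberg adjustment) in E compared with C. In TE compared with E it had a log2 fold change 0.23 (SE 0.0904, adjusted p = 0.437 by edgeR with Benjamini-Hochberg adjustment). In TE compared with T the log2 fold change of Psme1 was 0.17 (adjusted p = 0.852 by edgeR), and 0.10 without T3.

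Psme2 had 17.3, 22.3, 19.99 and 18.8 FPKM in C, 18.7, 17.98, 18.4 and 17.1 in E, 19.3, 18.2, 17.4 and 21.4 in T and 19.7, 22.3, 19.2 and 21.2 in TE. Each TE mouse was above each E mouse, and the other groups overlapped, with a log2 fold change 0.24 (SE 0.0844, adjusted p = 0.35 by edgeR with Benjamini-Hochberg adjustment) in TE compared with E. Psme2b, an intronless near copy of Psme2 on another chromosome (chr11:48836181-48837017, minus strand), had 6.74, 6.91, 7.84 and 7.47 FPKM in C, 7.29, 6.31, 6.41 and 7.20 in E, 7.43, 6.02, 7.72 and 5.77 in T and 7.12, 8.39, 7.36 and 10.8 in TE. TE4 was the highest of the 16 mice. The log2 fold change 0.35 (SE 0.131, adjusted p = 0.402 by edgeR with Benjamini-Hochberg adjustment) in TE compared with E was 0.23 without TE4, and the 0.30 in TE compared with T was 0.18 without it.

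How reads were divided between Psme2 and Psme2b is uncertain, because their coding sequences in GENCODE differ at 5 of 720 bases (99.3% identity). The bases 484 to 543 of each coding sequence, counted from 1 at its start, hold 3 of the 5 differences and are shown to make this visible, with the differing bases in capitals:
Psme2: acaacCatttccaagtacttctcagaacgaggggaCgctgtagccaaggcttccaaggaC
Psme2b: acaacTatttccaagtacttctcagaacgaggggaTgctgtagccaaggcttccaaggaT
A read that covers none of the differing bases matches both genes. Of the 44 genes, 10 have a near copy elsewhere in the annotation with at least 95% identity over at least 300 bases, Psma3, Psma4, Psma5, Psmb3, Psmb5, Psmc1, Psmd2, Psmd11, Psme2 and Psme2b, and 21 share exon bases with a gene on the other strand.

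**Figure D4:**
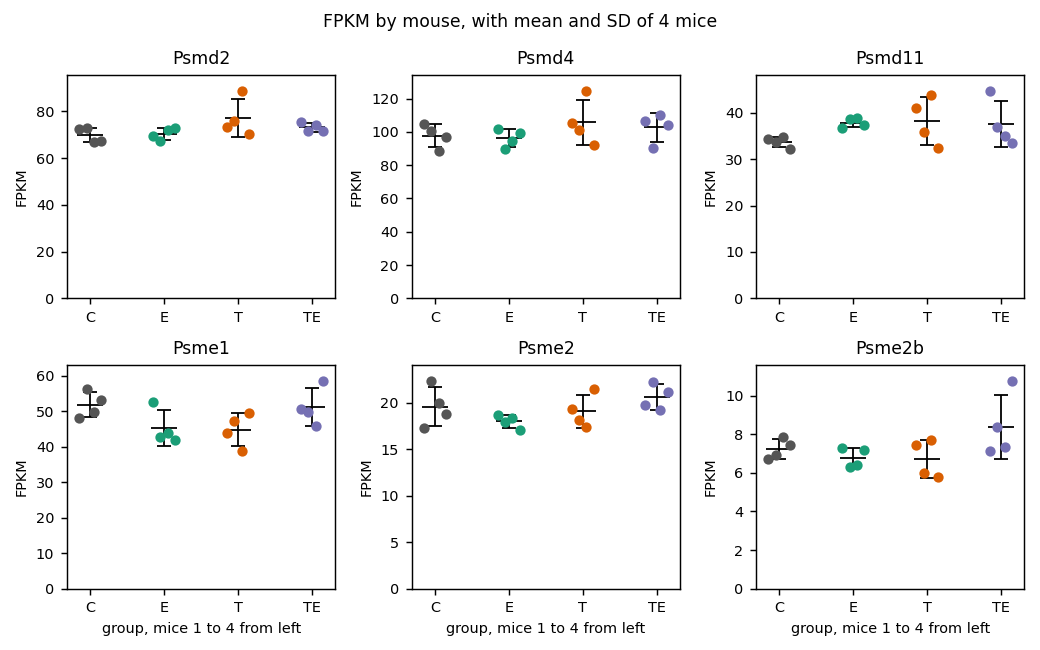
FPKM (vertical) of Psmd2, Psmd4, Psmd11, Psme1, Psme2 and Psme2b in each mouse, with points for mice 1 to 4 from left in each group and bars for the mean and SD of 4 mice. T3 is the highest point for Psmd2 (88.7 FPKM) and Psmd4, TE4 for Psme1 (58.4 FPKM) and Psme2b (10.8 FPKM), and the groups overlap in most panels.

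Psme3, which forms a nuclear activator ring by itself, had 12.4 ± 0.547, 12.8 ± 0.332, 13.1 ± 0.643 and 12.7 ± 0.646 FPKM in C, E, T and TE (SD, n = 4). Its SD on the log2 scale, 0.056, was the lowest of the activators. Psme4, a large single-chain cap, had 40.5 ± 2.34, 42.5 ± 2.82, 39.03 ± 5.79 and 41.7 ± 4.5 FPKM (SD, n = 4), with its lowest value of 31.1 FPKM in T4. The inhibitor Psmf1, which binds the barrel ends, had 5.61 ± 0.301, 5.61 ± 0.251, 5.41 ± 0.561 and 5.47 ± 0.197 FPKM (SD, n = 4). None of these genes passed the threshold in any comparison.

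Whether training acted differently with and without a tumor was tested as the interaction, the TE to T difference less the E to C difference. It called 0 of 40 subunit genes and 0% of all tested genes, with 3 of 40 at an unadjusted p under 0.05, beside 9.21% of all tested genes. The smallest p in this set was that of Psme1, with a log2 fold change 0.41 (SE 0.128, adjusted p = 0.438 by edgeR with Benjamini-Hochberg adjustment) and a 95% interval of 1.1 to 1.6 in fold. Psma4 followed with a log2 fold change 0.20 (SE 0.0847, adjusted p = 0.504 by edgeR with Benjamini-Hochberg adjustment) and Psme2b with a log2 fold change 0.43 (SE 0.185, adjusted p = 0.523 by edgeR with Benjamini-Hochberg adjustment), the latter 0.31 without TE4. The median was 0.10 for the core (14 of 14 above 0), 0.084 for the regulatory particle (16 of 20) and 0.25 for the activators (4 of 5), beside -0.0013 for all tested genes. With library totals 9 of 20 regulatory genes were below 0. The core median ran from 0.067 without C1 to 0.16 without C3, and the regulatory median was 0.051 without T4 and 0.028 without T3, T4 and TE4. Muscle markers were above 0 for 12 of 15 (median 0.10), erythroid markers for 6 of 6 (0.22) and lymphoid markers for 17 of 17 (4.34). Neutrophil markers were above 0 for 3 of 10 (-0.94), macrophage markers for 1 of 11 (-0.58) and adipocyte markers for 0 of 8 (-1.68). None of the markers was called by edgeR, and their part in the subunit values was not tested. The interaction was measured with a median SE of 0.099, so that 11 of 40 intervals lay between 0.833 and 1.2 in fold. For the other genes the interval reached beyond these limits, and Psme1, at 1.325-fold, was not called.

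Subunit genes varied together from mouse to mouse. Over the 16 libraries, the median Pearson r between pairs of core genes was 0.631, with 91 of 91 pairs above 0, beside -0.002 between pairs of all tested genes. It was 0.473 between pairs of regulatory genes (176 of 190 above 0) and 0.5 between core and regulatory genes (270 of 280). The activators stood apart, with medians of 0.126 among themselves, 0.164 with the core and 0.075 with the regulatory particle. These values are a description: the 16 points share the libraries, their scaling and the group differences. With the core genes, Psma2, Psmd6 and Psma3 had the highest median r, 0.722, 0.719 and 0.715, and Psme3, Psmd11 and Psme4 the lowest, -0.035, 0.126 and 0.14. On TMM-scaled CPM, C1 was the highest of the 16 mice for 12 of the 40 genes and C2 for 9, whereas C3 and T4 were each the lowest for 9 and E3 for 8.

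The immunoproteasome genes, which the rule left out, give a comparison from the same barrel. Psmb8, Psmb9 and Psmb10 encode the cutting subunits that take the places of Psmb5, Psmb6 and Psmb7 after induction by interferon gamma. As a share of the summed FPKM of these 6 catalytic genes they made up 5.02, 5.74, 6.73 and 6.70% in the C mice, 6.35, 5.20, 5.10 and 4.54% in the E mice, 5.36, 7.35, 5.56 and 5.81% in the T mice and 5.83, 6.41, 6.88 and 9.18% in the TE mice. The groups overlapped and TE4 was highest. Psmb8 had 7.55, 10.6, 10.6 and 10.6 FPKM in C, 9.85, 6.81, 7.50 and 6.59 in E, 9.47, 11.6, 9.49 and 7.90 in T and 10.4, 11.1, 9.29 and 17.7 in TE, with a log2 fold change 0.70 (SE 0.178, adjusted p = 0.13 by edgeR with Benjamini-Hochberg adjustment) in TE compared with E. That value was 0.49 without TE4, and DESeq2 on all mice gave it an adjusted p of 0.0155. By edgeR none of the 3 genes was called in any comparison. Psmb9 had 5.66 ± 0.605, 4.55 ± 0.752, 5.58 ± 1.25 and 6.85 ± 2.03 FPKM, and Psmb10 9.05 ± 0.672, 8.60 ± 0.968, 8.51 ± 1.24 and 10.1 ± 1.85 FPKM in C, E, T and TE (SD, n = 4).

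Psme1 followed Psmb8 from mouse to mouse. Over the 16 mice, log2 CPM of Psme1 and Psmb8 had a Pearson r of 0.674 and a Spearman rho of 0.671 (permutation p = 0.00405 and 0.00589, adjusted p = 0.0121 and 0.0309 over 6 genes). Mice were permuted across groups, so the p values of these correlations include differences between groups. Without E4 and TE4, the 2 mice farthest from the Psmb8 median, r was 0.493 (permutation p = 0.0715, n = 14), so the passing of the threshold rested on those mice, and for deviations from the group means r was 0.578. Psme2b had r = 0.709 and rho = 0.479 with Psmb8 (permutation p, adjusted over 6 genes, of 0.0121 and 0.0951), and 0.552 without the 2 mice. For Psme2, r was 0.546 and rho 0.635 (permutation p, adjusted over 6 genes, of 0.055 and 0.0309), with 0.441 without the 2 mice and 0.144 for deviations from the group means. Psme3, Psme4 and Psmf1 had r of 0.269, -0.067 and 0.409, none of which passed the adjusted threshold. The lymphoid marker sum was highest in TE4 as well, and its part in these relations was not tested.

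**Figure D5:**
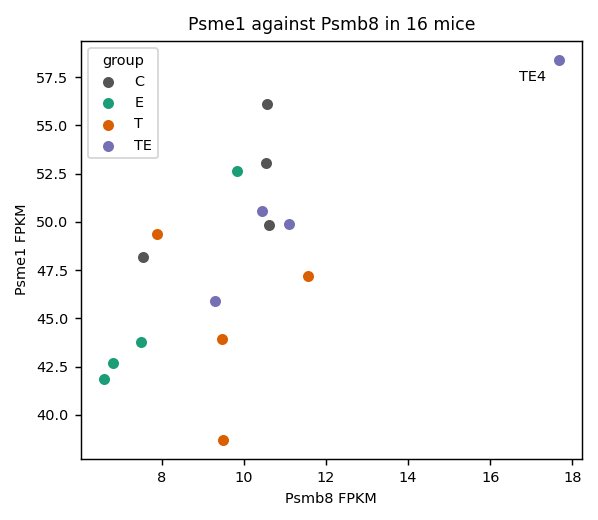
FPKM of Psme1 (vertical) against FPKM of Psmb8 (horizontal) in the 16 mice, colored by group. TE4 lies alone at the upper right (17.7 FPKM of Psmb8 and 58.4 of Psme1), and the other 15 mice lie between 6.59 and 11.6 FPKM of Psmb8.

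Genes that act before the proteasome or regulate its genes were read from lists. By edgeR none was called in T vs C, TE vs E, E vs C, TE vs T, the averages or the interaction among 13 assembly and associated genes, 10 regulators of proteasome genes, 11 ubiquitin and shuttle genes and 11 atrophy ligases. Nfe2l1, which drives subunit genes when proteasome capacity falls short, had 67, 69.5, 76.4 and 78.7 FPKM in C and 76.04, 81.4, 92.5 and 78.5 FPKM in T, with a log2 fold change 0.20 (SE 0.0659, adjusted p = 0.182 by edgeR with Benjamini-Hochberg adjustment). T3 again had the highest value. Fbxo32, a muscle ubiquitin ligase, had 50.3, 34.1, 60.7 and 60.3 FPKM in C, 124, 66.9, 72.95 and 107 in E, 78.6, 67.1, 189.5 and 59.8 in T and 40.9, 111, 137 and 63.6 in TE. Its level in T3 was the highest of all mice, and in T compared with C the log2 fold change 0.96 (SE 0.375, adjusted p = 0.249 by edgeR with Benjamini-Hochberg adjustment) did not pass the threshold and was 0.45 without T3. Trim63, the other classical muscle ligase, had 146, 124, 125 and 141 FPKM in C, 204.8, 141.5, 131.6 and 219.5 in E, 163, 122, 286 and 136 in T and 138.3, 187.9, 231.8 and 143 in TE. Its means in E, T and TE were 174.4, 176.8 and 175.3 FPKM, beside 134 in C. In T compared with C it had a log2 fold change 0.42 (SE 0.236, adjusted p = 0.452 by edgeR with Benjamini-Hochberg adjustment) that was 0.10 without T3. Of 40 subunit genes set against Fbxo32 over the 16 mice, 0 passed, the smallest adjusted permutation p being 0.588 for Pearson's r and 0.665 for Spearman's rho. Most of the 40 r were negative, the largest in size being -0.539 for Psme1 and -0.53 for Psmd10 (unadjusted permutation p = 0.0309 and 0.0355). Without T3 and TE3 these were -0.357 and -0.57. Psmd2 had r = 0.423 and rho = 0.338 with Fbxo32 (permutation p = 0.102 and 0.201), and r was -0.076 without T3 and TE3.

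The 250 bases before the start of each gene's canonical transcript were searched on both strands of GRCm39 for 3 motifs known from the control of these genes, chosen after values were seen. CCAAT, the CCAAT box, was in 18 of 42 subunit genes (42.9%), beside 36.5% of 21770 protein-coding genes. TGACNNNGC, the core of the antioxidant response element that Nfe2l1 and its relatives bind, was in 6 (14.3%, beside 9.69%): Psmb5, Psmb6, Psmc6, Psmd7, Psmd9 and Psmd12. TTTC, any 2 bases and TTTC again, the core of the interferon-stimulated response element, was in 6 (14.3%, beside 3.32%): Psma4, Psma5, Psmb3, Psmd4, Psmd7 and Psmd9, and in none of the 5 activator genes or the 3 immunoproteasome genes. The windows of Psme1 (chr14:55815501-55815750) and Psme2 (chr14:55828545-55828794) lie inside the annotated genes. The bases before the annotated starts of Psme1 and Psme2 were therefore not searched. A match says only that the letters are there. As examples, a catalytic gene and a ubiquitin receptor that was highest in T3 were taken, neither of which was called in any comparison. The windows of Psmb5 (chr14:54855482-54855731, minus strand) and Psmd4 (chr3:94949926-94950175, minus strand) are shown 5′ to 3′ with matches in capitals, where ATTGG is the CCAAT box read on the other strand and no matches overlap:
Psmb5: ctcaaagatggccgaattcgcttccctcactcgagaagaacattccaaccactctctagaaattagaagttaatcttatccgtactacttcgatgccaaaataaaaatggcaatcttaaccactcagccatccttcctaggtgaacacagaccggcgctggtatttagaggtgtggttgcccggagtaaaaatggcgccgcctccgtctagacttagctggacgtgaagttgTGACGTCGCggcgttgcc
Psmd4: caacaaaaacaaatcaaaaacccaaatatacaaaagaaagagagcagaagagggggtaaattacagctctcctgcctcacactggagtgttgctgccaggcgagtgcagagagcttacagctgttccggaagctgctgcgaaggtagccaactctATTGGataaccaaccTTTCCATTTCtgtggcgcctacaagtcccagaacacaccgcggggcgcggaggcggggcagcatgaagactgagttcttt
The match in Psmb5 begins 18 bases before the transcript start, and those in Psmd4 begin 95 bases (CCAAT box) and 80 bases before it.

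The remaining genes that matched the rule complete the account. Psma8, known as the form of a gate subunit in testis, had 3 counts in C3, 1 in E2 and 0 in the other mice, and Psmb11, known as the form of a cutting subunit in thymus, had 1 count in E2 and 0 in the other mice, so both failed the filter on low counts and a count of 0 allows up to 0.0842 CPM. Psme3ip1, with a mean of 11.9 FPKM, and Psmc3ip, with 0.62 FPKM, were tested and not called in any comparison. The 95% interval of all 40 tested subunit genes lay between 0.5 and 2 in fold in each of T vs C, TE vs E, E vs C, TE vs T, the averages and the interaction.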

How the data were processed

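PolyA RNA of gastrocnemius muscle was sequenced from 16 mice in 4 groups of 4, which the sample labels name. Per the labels and the submitters' processing notes, the authors trimmed reads with fastp 0.20.1, aligned them to GRCm39 with HISAT2 2.1.0 and deposited raw, unscaled counts per gene from HTSeq 0.11.2. Beside the counts the authors deposited FPKM, and in the 11001 genes above 50 counts these values followed from count, library total and 1 length per gene, which differed between libraries by a relative 3.11e-15 at most. The annotation release and strand setting are not given in the sources used here, so counts of overlapping genes and near copies are uncertain. The columns of the authors' own comparisons were not used, and there were 0 columns of other samples.

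Counts were tested with edgeR 4.0.16 in R 4.3.3: filterByExpr, TMM factors (0.9469 to 1.05), 1 coefficient per group, glmQLFit and glmQLFTest on 16 libraries, two-sided, with Benjamini-Hochberg adjustment over 14749 genes in each of 7 comparisons and a threshold of 0.05. TMM-scaled log2 CPM used a prior count of 2. FPKM served to compare levels between genes. Counts within a group differed more than sampling noise (chi-square per degree of freedom 12.7 to 61.3), so all 16 were counted as separate samples. Count limits of single libraries cover counting error only. The intervals of fold changes come from the edgeR fit on the 16 libraries, so they also include variation between mice. Correlations over mice used 100000 permutations. Scripts were tested on simulated counts. Positions and sequences came from the GRCm39 genome and GENCODE vM39, in which 44 of 44 genes were found.

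Genes were named by rule: the 3 with the smallest p in each comparison, the catalytic genes, the activators, Psmf1, the 2 highest and 2 lowest levels, genes failing the filter, and from other lists the immunoproteasome genes, Nfe2l1, Fbxo32 and Trim63. Psmd1, Psmd4 in T vs C, and genes named for non-overlap, correlation or motifs were added after values were seen. The members, lists and tests were chosen with earlier results of these data known. Replicate numbers stand for different mice and did not pair them: 24 correlations of the deviations of same-numbered mice ran from -0.241 to 0.214. Alternatives were DESeq2 1.42.0, limma-voom (limma 3.58.1), RLE factors, no count filter, a replicate block, a robust fit, only the groups compared, the unadjusted p, an added fold change above 2 or below 0.5, and each mouse left out in turn. Library totals without TMM factors, and T3, T4 and TE4 left out together, were added after seeing the data. Figures were drawn with matplotlib 3.10.9.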

Additional observations from a re-analysis of the deposited data

Results flagged for a closer look

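A mouse far from the other mice of its group, by Dixon's 95% limit for 4 values, was looked for in 88 gene and group combinations, and chance alone marks about 1 in 20. There were 4 such values. Psmb3, a ring subunit of the core, had 124.6 FPKM in C3, where the other C mice had 140.8 to 141.2 FPKM. Psmb2, another ring subunit, had 76.81 FPKM in TE4, where the other TE mice had 80.44 to 80.65 FPKM. Psmb5, a catalytic subunit, had 46.96 FPKM in T4, where the other T mice had 50.39 to 51.02 FPKM. The inhibitor Psmf1 had 5.163 FPKM in C1, where the other C mice had 5.705 to 5.799 FPKM. Each of these mice was the lowest of its group for that gene.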

How the results depend on the processing

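At an adjusted p under 0.05, the count of subunit genes was 0 in T vs C, TE vs E, E vs C, TE vs T, the tumor average, the training average and the interaction under each alternative run, with a smallest adjusted p of 0.0909 (Psmb2 in the tumor average with library totals in place of TMM factors). Leaving out each mouse in turn gave counts of 0 to 0, and the replicate block gave 0 in each comparison, so the block changed no call. With the unadjusted p the counts were 3 in T vs C, 1 in TE vs T, 4 in E vs C, 5 in TE vs E, 3 in the tumor average, 2 in the training average and 3 in the interaction. DESeq2 called more of all tested genes than edgeR (421 against 100 in T vs C, 279 against 13 in E vs C) and 0 subunit genes. The calls among all genes also turned on single mice. By edgeR they ran from 0 without C1 to 127 without T3 in E vs C. In the training average they were 1 on all mice and 104 without T3. Of the 28 log2 fold changes of single genes, Psmb8 in TE vs E passed the threshold with DESeq2 (0.71, adjusted p = 0.0155), while its adjusted p was 0.13 in edgeR. Psmb7 in T vs C, at 0.0056, changed sign without the count filter (-0.001), with only the groups compared (-0.002), with library totals (-0.021) and without C3, C4 or T1, leaving out each mouse in turn giving -0.0404 to 0.0352. The other 26 neither changed sign nor passed the threshold under an alternative. The class medians moved by less than 1 SD between mice, and those nearest 0 changed sign: the core in T vs C ran from -0.086 without C3 to 0.015 without T3, T4 and TE4. The tested subunit genes with the fewest counts were Psme2b (226 to 421 counts per mouse) and Psmd10 (251 to 399), which also had the widest intervals in T vs C. The part of counting error in the width of their intervals was not tested.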
